A study of Mus musculus with 4 samples.

Results

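The genes described here carry long-chain fatty acids into muscle cells, store them as droplets and burn them in mitochondria. They are 38 of the 45777 genes in the deposited table, chosen by symbol from a list of known genes of this pathway. The rule uses no measured value, but the list was drawn up with earlier results of these data known. All 38 symbols were found. The cells were C2C12 myotubes, multinucleate fibres fused from the mouse myoblast line C2C12, kept in DMEM with 2% horse serum. RNA sequencing was run on 4 cultures with 1 library each: clenbuterol, a control for clenbuterol, EPS and a control for EPS. Clenbuterol is a β2-adrenergic agonist that raises cyclic AMP, and the series uses it and EPS as in vitro models of exercise. EPS is not spelled out in the labels and is taken to mean electrical pulse stimulation, a way to make myotubes contract. The treatment field gives 30 ng/ml clenbuterol for all 4 libraries, controls and EPS pair included, so groups follow the titles. The sources used here give no pulse settings or times of exposure, and a single cell line was used throughout.

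In the EPS pair the titles conflict with the names under which the data were deposited. The record titled EPS holds data named for the control, and the record titled EPS control holds data named for EPS. The names "titled EPS" and "titled EPS control" follow the titles, and if the data names are right instead, each direction within this pair is the opposite one. With 1 library per group there is no replicate and no test between conditions. Each fold is a ratio of CPM, the estimated counts scaled to equal library size by TMM factors, with a 95% counting interval in parentheses. Those intervals hold for counting error alone and leave out the spread between cultures. Levels are given as TPM, a transcript abundance corrected for gene length, which can be set side by side across genes.

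Fatty acids enter muscle through CD36 and the fatty acid transport proteins, are carried in the cytosol by FABP3 and are activated to acyl-CoA by ACSL enzymes. CPT1 on the outer mitochondrial membrane links the acyl group to carnitine, SLC25A20 moves it across the inner membrane and CPT2 restores acyl-CoA in the matrix. Malonyl-CoA, made by ACACB and removed by MLYCD, inhibits CPT1 and so sets the rate of entry. In the matrix, acyl-CoA dehydrogenases, the trifunctional protein and a thiolase shorten the chain step by step, and electrons pass through ETF and its dehydrogenase to ubiquinone. Many of these genes are known targets of the PPAR nuclear receptors, which bind DNA with RXR at a repeated hexamer.

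That element, the DR1, is AGGTCANAGGTCA, a direct repeat of AGGTCA spaced by 1 base. It was searched on both strands with at most 2 mismatches in RefSeq promoter windows (GRCm38.p6, the build called mm10), which run from 250 bases before to 50 after each start. Windows were found for 33 of the 38 genes, 41 windows in all. Cpt1b, Crat, Decr1, Fabp4 and Acaa2 had none there. A DR1 match lay in 5 of the 41 windows (12.2%), against 3.86% of 32851 windows of all genes. The 5 genes were Ucp3, Cd36, Plin2, Slc25a20 and Etfa. AGGTCA alone lay in 24.4% of the member windows and in 16.3% of all windows. The short core of the cyclic AMP element, TGACG, lay in 22.0% and 20.8%, and the full element TGACGTCA in 0 of the 41 and 1.79% of all. These matches describe letters in the windows and do not show binding. The windows below are examples from 4 genes. Among members that reached a TPM of 1 in the EPS pair, Cpt1a had the lowest ratio by title and Cd36 the highest. Ucp3 was below a TPM of 1 in all libraries and Plin2 was 1.21-fold higher in titled EPS. The window of Acot2, 1.27-fold higher there, held neither a DR1 match nor AGGTCA. Capitals mark the DR1 match in the first 3 windows and a single AGGTCA on the opposite strand in Cpt1a, which had no DR1 match.
Ucp3, chr7:100472741-100473040, plus strand: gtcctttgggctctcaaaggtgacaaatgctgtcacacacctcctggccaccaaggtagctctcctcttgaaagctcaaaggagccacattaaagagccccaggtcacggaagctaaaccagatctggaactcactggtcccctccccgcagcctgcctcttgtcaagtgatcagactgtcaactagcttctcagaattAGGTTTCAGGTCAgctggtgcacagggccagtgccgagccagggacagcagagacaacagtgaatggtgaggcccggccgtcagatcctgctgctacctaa
Cd36, chr5:17835847-17836146, minus strand: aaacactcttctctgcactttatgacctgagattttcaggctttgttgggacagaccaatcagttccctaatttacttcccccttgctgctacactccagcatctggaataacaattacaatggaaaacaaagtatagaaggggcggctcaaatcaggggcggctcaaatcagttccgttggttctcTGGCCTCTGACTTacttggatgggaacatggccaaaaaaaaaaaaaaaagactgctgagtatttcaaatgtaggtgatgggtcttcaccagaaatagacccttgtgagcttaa
Plin2, chr4:86670010-86670309, minus strand: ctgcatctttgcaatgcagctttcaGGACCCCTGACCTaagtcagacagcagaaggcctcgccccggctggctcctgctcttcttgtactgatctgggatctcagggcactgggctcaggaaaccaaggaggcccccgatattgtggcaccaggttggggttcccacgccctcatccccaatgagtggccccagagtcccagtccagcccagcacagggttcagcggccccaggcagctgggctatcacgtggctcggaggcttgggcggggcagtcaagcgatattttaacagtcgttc
Cpt1a, chr19:3323051-3323350, plus strand: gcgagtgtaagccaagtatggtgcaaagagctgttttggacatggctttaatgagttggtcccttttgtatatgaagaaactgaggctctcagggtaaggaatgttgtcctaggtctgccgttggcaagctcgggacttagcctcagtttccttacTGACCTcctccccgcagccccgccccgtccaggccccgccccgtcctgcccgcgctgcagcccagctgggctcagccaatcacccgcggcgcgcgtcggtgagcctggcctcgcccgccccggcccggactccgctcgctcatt
The Ucp3 match reads AGGTTTCAGGTCA and lies 51 to 39 bases before the start, and the Cd36 match reads AAGTCAGAGGCCA on the opposite strand 63 to 51 bases before it. The Plin2 match, AGGTCAGGGGTCC on the opposite strand, lies farther out, 225 to 213 bases before the start. Each start is the one of the RefSeq window. The Cd36 and Cpt1a windows lie inside the gene spans deposited with the data, 17781690 to 17888959 and 3322326 to 3385735. Which start these cells used was not tested.

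The 4 libraries held 32640884 to 35597074 estimated counts, and 13412 to 13489 genes reached a TPM of 1. Summed TPM of the 12 myotube marker genes was 31734 with clenbuterol and 31730 in its control, but 21665 in titled EPS and 25925 in titled EPS control. Of 7 adipocyte markers 0 reached a TPM of 1, with 6 at 0 in each library, and of 5 endothelial markers 0 did, with 2 to 4 at 0. Of 5 macrophage markers Cd68 alone reached a TPM of 1, while 4 of 5 fibroblast markers did so, with summed TPM of 2554 to 4423.

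As a set the fatty acid genes were well expressed. Their summed TPM was 2298 with clenbuterol and 2310 in its control, while titled EPS had 2103 and titled EPS control 2061. In both comparisons 34 of the 38 reached a TPM of 1 in either library of the pair, and these are called measured. Fabp4, Ppara, Acacb and Ucp3 did not reach it in any library. Hadha, the α subunit of the trifunctional protein, was among the most abundant, at a TPM of 192 with clenbuterol, 200 in its control, 173 in titled EPS and 167 in titled EPS control. Plin2, the coat protein of lipid droplets, stood at 169, 171, 205 and 171 in the same order. Acadl, the long-chain acyl-CoA dehydrogenase, stood at 177, 175, 154 and 165. Acadvl, the very-long-chain dehydrogenase, and Fabp3, the muscle fatty acid carrier, completed the 5 highest mean levels, at 113 to 131 and 104 to 137.

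**Figure D1:**
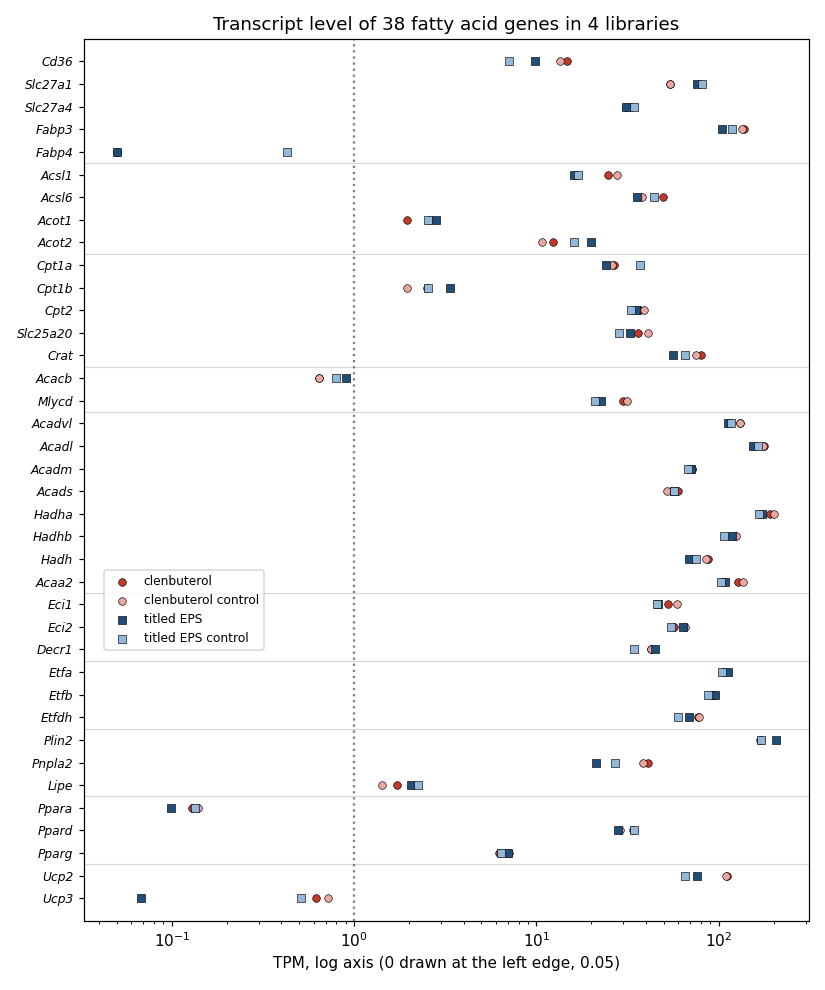
TPM of each of the 38 genes (rows, grouped by role from uptake at the top to uncoupling proteins at the bottom) on a log axis, with 1 point for each of the 4 libraries and a dotted line at a TPM of 1. Points of a gene lie close together for most genes, and Fabp4, Acacb, Ppara and Ucp3 stay left of the line.

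The first comparison asked how myotubes given clenbuterol differ from their control in this pathway. Differences were small. Of 34 measured members, 0 were at least 1.5-fold higher and 0 were at least 1.5-fold lower, where 3.55% and 3.01% of 13788 genes passed these limits. The median log2 ratio of the members was 0.02 against 0.01 for all genes, and its extremes were −0.38 and 0.38. The median size of the log2 ratio, sign ignored, was 0.05 among members and 0.09 among all genes. At a limit of 0.32 on the log2 scale, 1 member was higher (Cpt1b) and 1 lower (Acot1), where 7.24% and 8.04% of all genes passed. At 2-fold it was 0 and 0, where 1.64% and 1.01% passed. For 8 of the 34 the counting interval excluded equal levels.

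Ppard, the PPAR isoform most abundant in these cells, had the largest ratio among members whose interval excluded equal levels. It stood at a TPM of 33.7 with clenbuterol and 28.6 in its control, on 1555 and 1337 counts, and was 1.20-fold higher (1.11 to 1.29). The titled EPS and titled EPS control libraries stood at 27.9 and 34.2, so the clenbuterol library lay inside the range of the other 3. Acads, the short-chain acyl-CoA dehydrogenase, was 1.16-fold higher, at 59.8 TPM with clenbuterol and 52.3 TPM in its control, with the EPS pair in between at 57.1 and 57.2. Acot2, the mitochondrial acyl-CoA thioesterase, stood at 12.4 TPM with clenbuterol and 10.7 TPM in its control, 1.18-fold higher (1.02 to 1.37). Lipe, hormone-sensitive lipase, is a textbook target of protein kinase A at the protein level. Its transcript was scarce, at 1.73 TPM with clenbuterol and 1.42 TPM in its control, on 80 and 73 counts (1.13-fold, 0.811 to 1.57).

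Genes of lipid droplet breakdown and of carnitine transfer were near equal as well. Pnpla2, the adipose triglyceride lipase that starts triglyceride breakdown, stood at 40.7 TPM with clenbuterol and 38.5 TPM in its control. Crat, which exchanges short acyl groups between CoA and carnitine, was 1.08-fold higher (1.03 to 1.13), 79.9 TPM with clenbuterol and 75.3 TPM in its control. Cpt1a had 1647 counts with clenbuterol and 1659 in its control. On the low side, Slc25a20, the carnitine carrier of the inner membrane, stood at 36.1 TPM with clenbuterol and 41.0 TPM in its control, 1.12-fold lower (1.02 to 1.22). Eci1, an enoyl-CoA isomerase needed for unsaturated chains, was 1.10-fold lower at 52.9 TPM with clenbuterol and 59.1 TPM in its control, and stood at 46.4 in titled EPS and 45.9 in titled EPS control. Acsl1 was 1.08-fold lower (1.01 to 1.16), 24.8 TPM with clenbuterol and 27.7 TPM in its control. Pparg, the PPAR of fat cells, was 1.16-fold lower, at 6.22 TPM with clenbuterol and 7.12 TPM in its control, with an interval of 0.956 to 1.42 that includes equal levels.

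The ratios of Cpt1b and Acot1 changed when overlapping or similar genes were summed, and that of Acsl6 differed between CPM and TPM. Cpt1b, the muscle form of CPT1, stood at 2.52 TPM with clenbuterol and 1.95 TPM in its control, 1.30-fold higher (0.967 to 1.76). A second gene model, Gm44502, spans the same locus and shares 77.1% of the 75-base stretches of Cpt1b transcripts (GENCODE M21). Gm44502 had 0 counts with clenbuterol and 24 in its control. Summed over both models there were 105 and 107 counts, a ratio of 1.01 (0.764 to 1.33). Gm44502 and this sum were chosen after the values were seen. Acot1, the cytosolic thioesterase, shares 11.2% of such stretches with its neighbour Acot2 and was 1.30-fold lower (0.867 to 1.97) on 44 counts with clenbuterol and 59 in its control, while both genes together were 1.12-fold higher (0.973 to 1.28). Acsl6, a long-chain acyl-CoA synthetase, had 2101 counts in each of the 2 libraries yet 49.5 TPM with clenbuterol and 37.8 TPM in its control. Its log2 ratio was 0.04 in CPM and 0.38 in TPM plus 1.

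**Figure D2:**
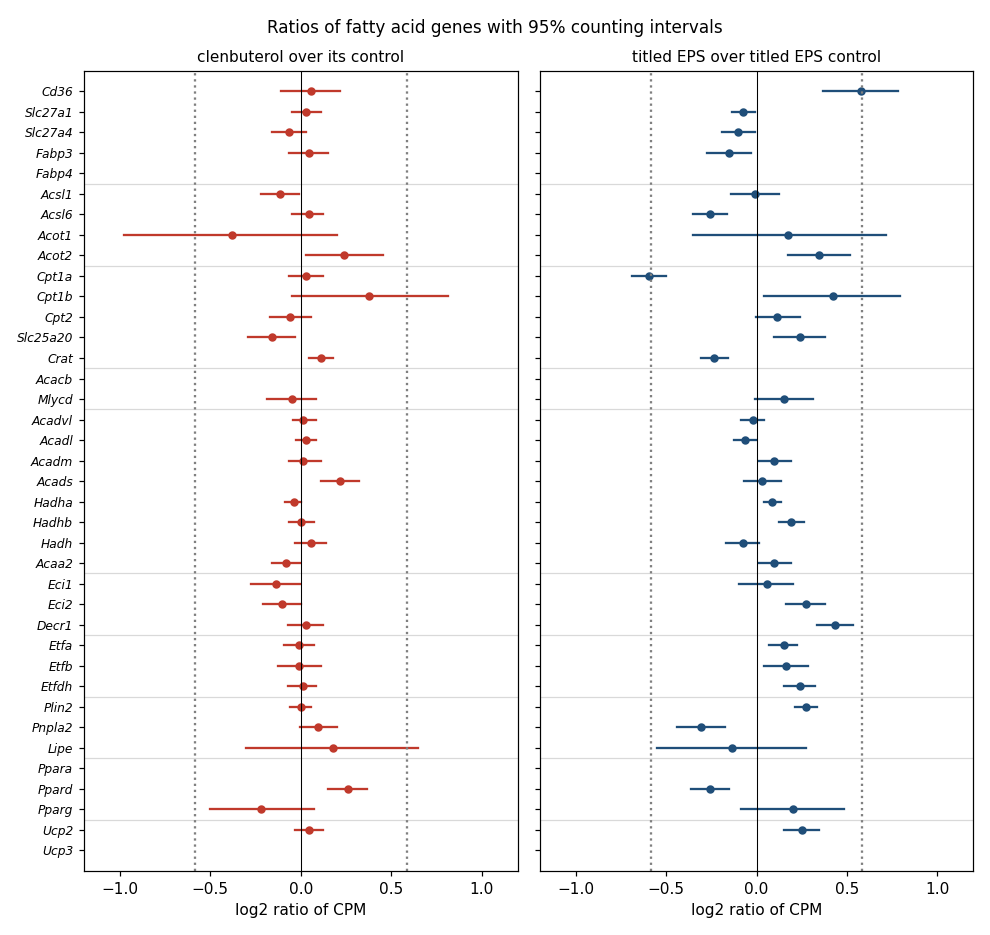
Log2 ratio of CPM (x axis) of each measured gene (rows) for clenbuterol over its control, left, and titled EPS over titled EPS control, right. Bars are 95% counting intervals and dotted lines mark 1.5-fold; all points on the left lie inside the lines, and on the right Cpt1a lies just beyond the lower one.

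The second comparison set titled EPS against its titled control in the same way. Cpt1a was 1.51-fold lower by title, while Cd36, Decr1, Cpt1b and Acot2 were 1.27-fold to 1.49-fold higher. Of 34 measured members, 0 were at least 1.5-fold higher and 1 at least 1.5-fold lower, where 3.92% and 5.41% of 13828 genes passed. At 0.32 on the log2 scale the numbers were 4 higher and 1 lower, where 10.3% and 12.6% of all genes passed, and at 2-fold 0 and 0, where 1.33% and 2.07% passed. The share of members past these limits was thus near or below that of all genes. The median log2 ratio of the members was 0.10 against 0.01 for all genes, and 61.8% of members and 51.3% of all genes had log2 ratios above 0. In this pair 24 of 34 counting intervals excluded equal levels, and the median size of the log2 ratio was 0.17 among members and 0.16 among all genes.

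Cpt1a, the CPT1 form of liver and of many growing cells, lies on mm10 chromosome 19 at 3322326 to 3385735. Its TPM was 24.0 in titled EPS and 37.1 in titled EPS control, on 1615 and 2202 counts, a 1.51-fold difference (1.42 to 1.61). The clenbuterol library and its control stood at 26.8 and 26.0, so titled EPS control was the one farthest from the other 3. The value sits at the limit of 1.5-fold and passed it under some scalings only: with library totals alone the count of members at least 1.5-fold lower was 0. In the opposite direction, Cpt1b had a TPM of 3.34 in titled EPS and 2.55 in titled EPS control and was 1.34-fold higher (1.03 to 1.73). Summed with Gm44502, which had 78 counts in titled EPS and 57 in titled EPS control, the ratio was 1.30 (1.06 to 1.60). Cpt1b therefore made up 12.2% of the summed Cpt1a and Cpt1b TPM in titled EPS, against 6.43% in titled EPS control. That share was 8.59% with clenbuterol and 6.98% in its control. These shares leave out Gm44502. Summed over both models, TPM was 2.52 with clenbuterol and 2.31 in its control, against 2.52 and 1.95 for Cpt1b alone. In titled EPS and titled EPS control the sums were 4.43 and 3.46. The shares thus depend on how reads were divided between both models. Cpt1a transcripts were the larger part of CPT1 in all 4 libraries.

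Cd36, the scavenger receptor that takes up long-chain fatty acids, lies just inside the 1.5-fold limits. Its TPM was 9.89 in titled EPS and 7.04 in titled EPS control, on 506 and 307 counts, and it was 1.49-fold higher (1.29 to 1.72). Both levels lay below those with clenbuterol, 14.8, and in its control, 13.4. In bulk RNA fewer cells that express a gene and less RNA per cell cannot be told apart. Endothelial cells, adipocytes and macrophages also express Cd36. None of the 7 adipocyte and 5 endothelial markers listed reached a TPM of 1. The 5 macrophage markers did not share a direction, and 2 were at 0 in each library. Cd68 was 1.54-fold higher (1.09 to 2.19), at 4.70 TPM in titled EPS and 3.29 TPM in titled EPS control. It made up most of the summed TPM of the 5, which was 5.03 in titled EPS and 4.05 in titled EPS control. Csf1r was 4.06-fold lower (1.60 to 12.2) on 6 counts in titled EPS and 22 in titled EPS control, and Lyz2 had 5 and 6 counts. The part of these cell types in the Cd36 difference was not tested. Other uptake genes did not share this direction. Fabp3 had a TPM of 104 in titled EPS and 118 in titled EPS control, 1.11-fold lower (1.02 to 1.21), and shares 24.3% of its stretches with the pseudogene Fabp3-ps1. Slc27a1 and Slc27a4, 2 fatty acid transport proteins, were lower by 1.05-fold (1.01 to 1.10) and 1.07-fold (1.01 to 1.14). Fabp4, the adipocyte carrier, had 4 counts in titled EPS control and 0 in each of the other 3 libraries, where a floor of 3 counts allows a CPM of up to 0.0830 in titled EPS and 0.0895 to 0.0921 in the clenbuterol pair.

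The 3 enzymes for unsaturated chains and the 3 electron transfer genes had median log2 ratios of 0.27 and 0.16 for titled EPS over titled EPS control, and none of the 6 passed 1.5-fold. Decr1, the dienoyl-CoA reductase, had a TPM of 45.0 in titled EPS and 34.2 in titled EPS control, on 1987 and 1329 counts, 1.35-fold higher (1.26 to 1.45). Eci2, an enoyl-CoA isomerase, was 1.21-fold higher (1.12 to 1.30), with 64.1 TPM in titled EPS and 55.0 TPM in titled EPS control, and the clenbuterol library and its control stood at 57.0 and 65.6. For Decr1 the library titled EPS control was the low one, since the clenbuterol library and its control stood at 42.6 and 42.4. Eci1 had a ratio of 1.04, with an interval of 0.936 to 1.15 that includes equal levels. Among electron transfer genes, Etfdh, the dehydrogenase that passes electrons to ubiquinone, was 1.18-fold higher, at 68.5 TPM in titled EPS and 59.7 TPM in titled EPS control, Etfa 1.11-fold (1.05 to 1.17) and Etfb 1.12-fold (1.03 to 1.22). Etfb shares 39.6% of its 75-base stretches with the gene model Gm45233, and its value is uncertain for that reason. Slc25a20 was 1.18-fold higher (1.07 to 1.30), with a TPM of 32.7 in titled EPS and 28.5 in titled EPS control.

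The oxidation spiral differed little. Its 8 genes had a median log2 ratio of 0.06 with extremes of −0.08 (Hadh) and 0.19 (Hadhb), and their summed TPM was 863 in titled EPS and 858 in titled EPS control. Hadha and Hadhb encode the 2 subunits of the trifunctional protein and are transcribed from opposite strands with 272 bases between them on chromosome 5. Hadhb was 1.14-fold higher (1.09 to 1.20), at 119 TPM in titled EPS and 107 TPM in titled EPS control, and Hadha 1.06-fold (1.03 to 1.10). Hadhb shares 16.7% of its stretches with other gene models. Acaa2, the thiolase that ends each round, was 1.07-fold higher (1.01 to 1.14), and so was Acadm. Beside these values stand the 13 mitochondrially encoded genes, whose log2 ratios were all above 0 by title (median 0.26). They took 8.0% of TPM in titled EPS against 6.84% in titled EPS control. With clenbuterol and in its control the share was 8.13% and 8.35%, so titled EPS control was the low library. In the EPS pair 4 of 12 myotube markers were at least 1.5-fold lower by title, and the median log2 ratio of all 12 was −0.46. The part of either in the ratios above was not tested.

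Storage genes went in both directions. Plin2 had 5848 counts in titled EPS and 4371 in titled EPS control and was 1.21-fold higher (1.16 to 1.26), and the other 3 libraries lay within a TPM of 169 to 171. Pnpla2 had a TPM of 21.2 in titled EPS and 26.9 in titled EPS control and was 1.24-fold lower (1.13 to 1.36). Lipe had 2.05 TPM in titled EPS and 2.24 TPM in titled EPS control, a ratio of 0.911 (0.684 to 1.21). Thus the droplet coat and the first lipase of the droplet differed in opposite directions in this pair.

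Activation genes, PPAR receptors and uncoupling proteins gave small or poorly counted differences. Acot2 had a TPM of 19.9 in titled EPS and 16.0 in titled EPS control and was 1.27-fold higher (1.13 to 1.43), or 1.26-fold (1.13 to 1.41) when summed with Acot1. Acot1 alone had 2.82 TPM in titled EPS and 2.54 TPM in titled EPS control (1.13-fold, 0.783 to 1.64). Acsl6 was 1.19-fold lower (1.12 to 1.28), with 35.7 TPM in titled EPS and 44.4 in titled EPS control, and Acsl1 had a ratio of 0.994 (0.907 to 1.09). Ppard was 1.20-fold lower (1.11 to 1.29), with 27.9 TPM in titled EPS and 34.2 TPM in titled EPS control. Pparg had 7.02 TPM in titled EPS and 6.41 TPM in titled EPS control, a ratio of 1.15 (0.941 to 1.40). Ppara, the main PPAR of liver, had 12 to 16 counts per library and a TPM of 0.0994 to 0.139. Crat was 1.18-fold lower (1.12 to 1.24), at 56.0 TPM in titled EPS and 65.7 in titled EPS control.

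Ucp3, the uncoupling protein of skeletal muscle and a known PPAR target, had the widest range of TPM among genes detected in all 4 libraries. It had 3 counts in titled EPS and 18 in titled EPS control, and 22 with clenbuterol and 26 in its control. The ratio of titled EPS to titled EPS control was 0.150, with an interval of 0.0284 to 0.515. The library titled EPS was thus the low one of the 4, but its TPM was below 1 in all of them, so the gene is not among the 34 measured members. Its neighbour Ucp2, 6904 bases away on chromosome 7 and expressed in many tissues, stood the other way, with a TPM of 76.1 in titled EPS and 65.7 in titled EPS control, 1.19-fold higher (1.11 to 1.27).

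**Figure D3:**
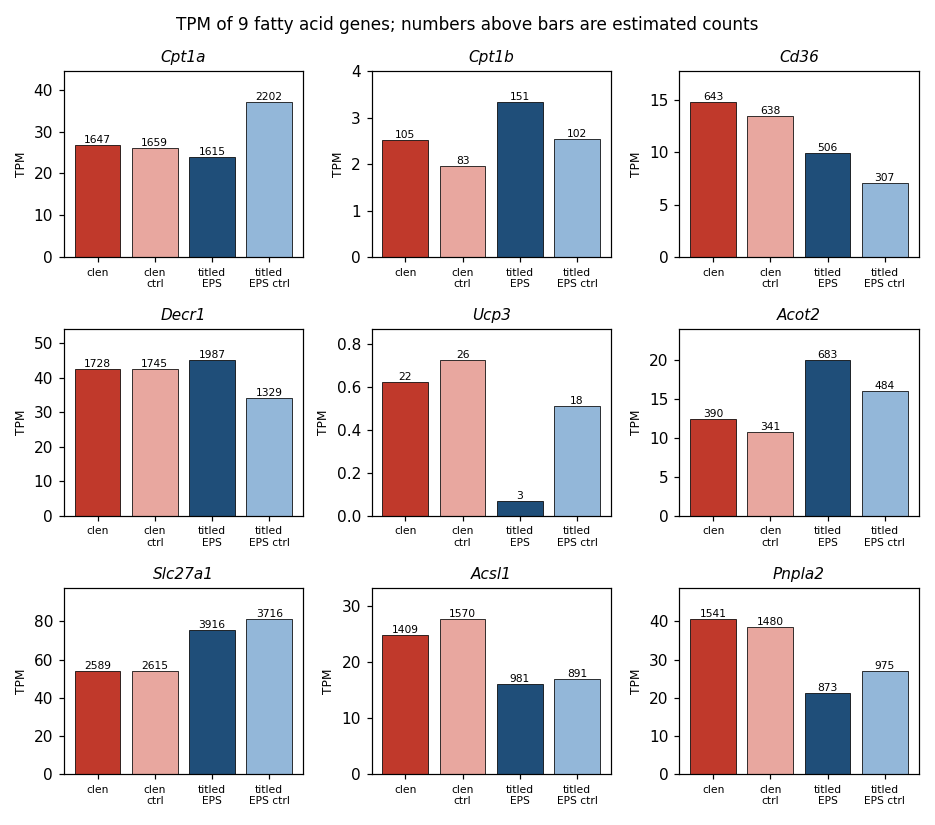
TPM (y axis) of 9 genes in the 4 libraries, with the estimated count above each bar; bars start at 0. Cpt1a is highest in titled EPS control at 37.1, Ucp3 is lowest in titled EPS with 3 counts, and Acsl1 and Pnpla2 are lower in both EPS libraries than in both clenbuterol libraries.

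**Figure D4:**
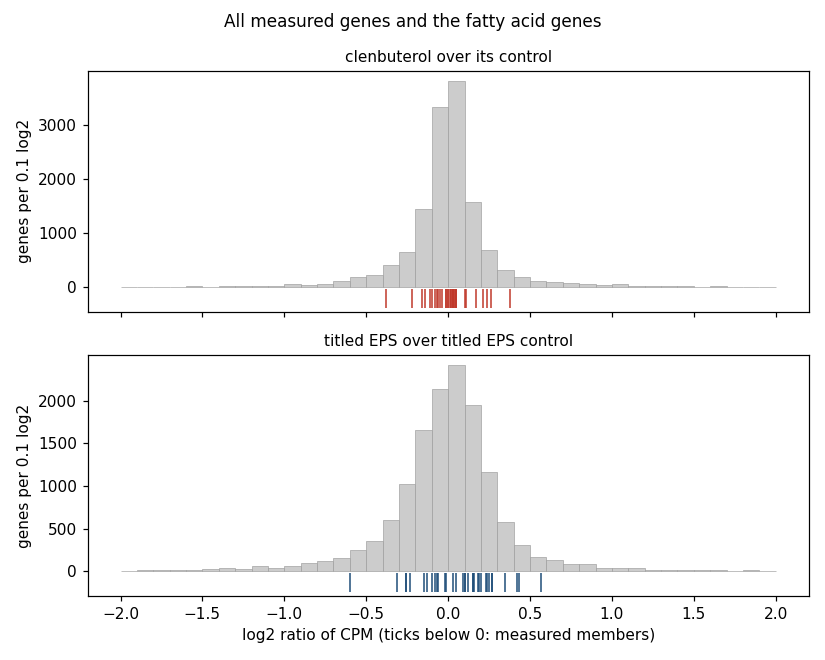
Number of genes per 0.1 of log2 CPM ratio (grey bars) for clenbuterol over its control, top, and titled EPS over titled EPS control, bottom, with a tick under the axis for each of the 34 measured fatty acid genes; genes beyond a log2 ratio of 2 in size are not drawn. The ticks lie within −0.38 to 0.38 at the top and −0.60 to 0.57 at the bottom.

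Another view does not depend on which library of the EPS pair is the control. It asks which genes had both libraries of the EPS pair on one side of both clenbuterol libraries. The titles give each pair its own control. Whether the pairs were cultured apart, and what else differed between them, is not given, so handling and treatment cannot be told apart. In the EPS pair 18 of 34 members lay below the clenbuterol pair in TPM, where 25.1% of 14213 genes did, and 4 lay above it, where 34.7% did. With a gap of at least 0.32 on the log2 scale between the nearest libraries, a limit added after the data were seen, 5 lay below (6.40% of all genes) and 2 above (9.27%).

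The 5 below were Acsl1, Cd36, Mlycd, Pnpla2 and Ucp2. Acsl1, which activates fatty acids at the mitochondrial surface, had a TPM of 16.1 in titled EPS and 16.9 in titled EPS control, against 24.8 with clenbuterol and 27.7 in its control. Pnpla2 stood at 21.2 and 26.9 in the EPS pair, against 40.7 and 38.5 in the clenbuterol pair. Ucp2 had 76.1 and 65.7, against 111 and 109. For each of these 3 genes the gap between the nearest libraries was larger than any difference within either pair. Mlycd, malonyl-CoA decarboxylase, had 22.5 and 20.9 in the EPS pair, against 29.8 and 31.4. Acacb, the acetyl-CoA carboxylase whose product MLYCD removes, lay the other way at 0.901 and 0.792, against 0.644 and 0.646, all under a TPM of 1.

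Slc27a1 and Acot2 were higher in the EPS pair. Slc27a1, the fatty acid transport protein of muscle and fat, had a TPM of 75.7 in titled EPS and 81.4 in titled EPS control, against 54.2 in both clenbuterol libraries. Slc27a4, the other transport protein among the 38, did not separate the pairs, with 31.1 and 34.2 against 31.1 and 33.1. Slc27a1 thus made up 70.9% and 70.4% of the summed TPM of both genes in the EPS pair, and 63.5% and 62.1% in the clenbuterol pair. Acot2 had 19.9 and 16.0, against 12.4 and 10.7. In the other measured members that separated the pairs, the nearest libraries differed by 1.01-fold (Acadm and Cpt1b) to 1.18-fold (Acaa2 and Lipe). Summed TPM of the myotube markers was lower in the EPS pair, and that of the fibroblast markers was higher (3862 and 4423, against 2752 and 2554). Col1a1 and Col3a1 made up most of the fibroblast sum. Dcn was slightly higher (231 and 225, against 210 and 212), but Pdgfra was lower (3.46 and 4.07, against 4.33 and 4.31). Of the myotube markers, Acta1 and Myh7 did not separate the pairs, and the others lay lower in the EPS pair. The markers of undifferentiated or dividing myoblasts, 8 in all, went in both directions. Mki67 (49.4 and 45.6, against 29.1 and 31.9), Top2a, Ccnb1, Ccnd1 and Myf5 were higher in the EPS pair. Id1 (36.6 and 19.8, against 57.7 and 56.7) and Id3 were lower, and Pax7 did not separate the pairs. The part of cell composition in these differences was not tested.

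**Figure D5:**
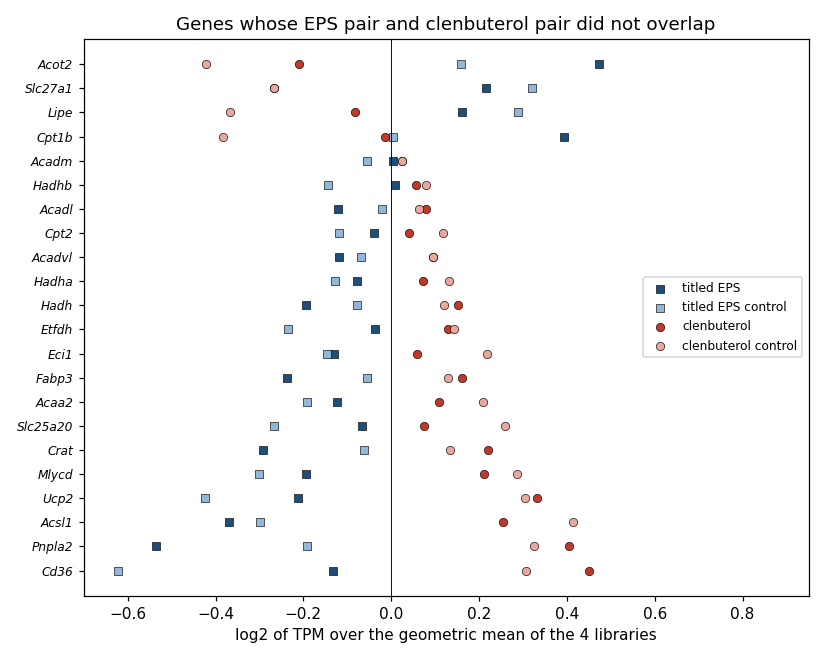
Log2 of TPM over the geometric mean of the 4 libraries (x axis) for the 22 measured genes whose EPS pair (squares) and clenbuterol pair (circles) did not overlap. Acot2, Slc27a1, Lipe and Cpt1b lie to the right in the EPS pair, and the other 18 lie to the left, Cd36 and Pnpla2 farthest.

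Some members stayed within narrow ranges. Acadm, the medium-chain dehydrogenase, ranged from a TPM of 67.7 to 71.6, a factor of 1.06 from lowest to highest. Etfa and Etfb ranged over factors of 1.08 and 1.09. Among measured members the widest ranges were those of Cd36 at 2.10, Pnpla2 at 1.92 and Acot2 at 1.86.

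Other genes of lipid metabolism, 138 found of 139 listed, gave a similar picture. Of 111 measured with clenbuterol, 3 were at least 1.5-fold higher and 1 lower, together 3.60% where 6.56% of all genes passed. The higher genes were Ppargc1a, Hilpda and Acox2. Ppargc1a, the coactivator of PPARs and of mitochondrial biogenesis, had 156 counts with clenbuterol and 85 in its control (1.89-fold, 1.44 to 2.49). Its TPM was 1.69 with clenbuterol and 0.633 in its control, so it counted as measured only through the clenbuterol library. In titled EPS and titled EPS control it was 0.291 and 0.256, and the gene was not measured there. Hilpda, an inhibitor of triglyceride lipase, stood at 31.3 TPM with clenbuterol and 17.7 TPM in its control, 1.86-fold higher (1.59 to 2.18). Acox2, a peroxisomal acyl-CoA oxidase, was 1.72-fold higher (1.28 to 2.33) on 124 and 74 counts. Slc27a3 was 1.56-fold lower (1.15 to 2.12) on 73 and 117 counts. Of 9 measured PPAR targets outside the 38, 0 passed with clenbuterol. Angptl4, an inhibitor of lipoprotein lipase, was the lowest, 1.36-fold lower (1.28 to 1.45), and Pdk4, a brake on pyruvate entry, was 1.19-fold lower (1.08 to 1.31).

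In titled EPS against titled EPS control, 2 of 111 were at least 1.5-fold higher and 5 lower, together 6.31% where 9.33% of all genes passed. G0s2, an inhibitor of the lipase PNPLA2, had a TPM of 160 in titled EPS and 94.7 in titled EPS control, 1.74-fold higher (1.61 to 1.87), and Gpat3, an acyltransferase of triglyceride synthesis, was 1.58-fold higher (1.29 to 1.95). The lower genes were Esrrb, Esrrg, Hilpda, Fgf21 and Me1. Esrrb and Esrrg, nuclear receptors related to the oestrogen receptor, were 2.63-fold (1.72 to 4.11) and 1.58-fold lower (1.24 to 2.02), on 32 and 115 counts in titled EPS and 76 and 164 in titled EPS control. Hilpda was 1.83-fold lower (1.60 to 2.10), Fgf21, a secreted metabolic hormone, 1.82-fold (1.63 to 2.02) and Me1, a source of NADPH, 1.63-fold (1.55 to 1.71). Of 14 measured PPAR partners and coregulators 0 had a log2 ratio above 0 by title (median −0.13), where 51.3% of all genes did. Esrrb and Esrrg alone among them passed 1.5-fold, and some intervals included equal levels, as for Rxrb, an RXR receptor, with a ratio of 0.973 (0.898 to 1.06). The medians of the peroxisomal, fatty acid synthesis, other mitochondrial and AMP-activated kinase lists lay between −0.01 and 0.04, and 0 of the peroxisomal, other mitochondrial and kinase genes passed 1.5-fold.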

How the data were processed

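Per the labels' protocols, libraries were made from total RNA with a strand-specific TruSeq mRNA kit. Reads were aligned with HISAT2 to mm10, per the submitters' processing notes. The sources used here do not name the counting program, the annotation or the strand setting. The authors deposited whole-number read counts per gene, treated here as estimated counts, together with FPKM and TPM, in 1 table of the series, and coverage, FPKM and TPM in 1 table per library. TPM of the 38 genes agreed between both kinds of table within 0.001. Columns of the joint table were tied to samples by the data name they share with each record's own table, and titles gave the groups.

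From the deposited counts, CPM was computed with TMM factors (edgeR 4.0.16, R 4.3.3) and folds with exact Clopper-Pearson 95% intervals. A library at 0 was set to a floor of 3 counts. Genes below a TPM of 1 in both libraries of a pair were left out, and 1.5-fold was the limit for a call. The ratio and interval code was tested on simulated data. Library totals were 32640884 to 35597074 counts. The 95% counting interval of a measured member reached a median of about 0.10 to either side on the log2 scale. Whether mates or fragments were counted is not stated; if mates, intervals are too narrow. Alternatives were other scalings (DESeq2 1.42.0 size factors, totals), filters, folds, TPM and FPKM ratios. Named genes were all members, those past 1.5-fold or extreme in each comparison in full, and up to 2 highest and 2 lowest of each other list; Gm44502 was chosen after its values were seen. The members and lists were chosen with earlier results of these data known. Sequences and promoter windows are from RefSeq (GRCm38.p6), and shared stretches of 75 bases were counted in GENCODE M21 transcripts. Python 3.11.15, numpy 2.4.6, pandas 2.3.3, scipy 1.17.1 and matplotlib 3.10.9 were used.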

Additional observations from a re-analysis of the deposited data

Results flagged for a closer look

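Hilpda stood in opposite directions in the 2 comparisons, at a log2 ratio of 0.90 for clenbuterol over its control and −0.87 for titled EPS over titled EPS control. Pax7, a marker of muscle progenitors, did so at 0.96 and −0.85, on 117 counts with clenbuterol and 62 in its control, and 54 in titled EPS and 88 in titled EPS control. Its TPM was 1.39 with clenbuterol, 0.787 in its control, 0.571 in titled EPS and 1.09 in titled EPS control. It thus reached a TPM of 1 only in the higher library of each pair. Pax7 does not stand for its list of 8 markers of undifferentiated or dividing myoblasts. Of these 8, 3 had log2 ratios above 0 with clenbuterol (median −0.07) and 7 for titled EPS (median 0.28). Cd68, a macrophage marker, stood at −0.81 and 0.62. These differences between the comparisons were not tested, since each group has 1 library, and both comparisons have the same sign if the data names of the EPS pair are right. No measured fatty acid gene passed 1.5-fold with clenbuterol, so none could pass in both comparisons. With smaller differences, Ppard (0.26 and −0.26), Slc25a20 (−0.16 and 0.24), Crat (0.11 and −0.23) and Acaa2 (−0.08 and 0.10) stood in opposite directions, with counting intervals that excluded equal levels in both comparisons.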

How the results depend on the processing

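The count of members at least 1.5-fold higher or lower with clenbuterol was 0 and 0 under every scaling, filter, TPM and FPKM setting and at 2-fold; at 0.32 on the log2 scale it was 1 and 1. For titled EPS the count of lower members was 1 (Cpt1a) and became 0 with library totals, with TPM at a pseudocount of 5, with FPKM and at 2-fold, and 2 with no filter on low values, which adds Ucp3. The count of higher members was 0, 1 with library totals and 4 at 0.32 on the log2 scale. Over all settings the median log2 ratio of the members lay between −0.01 and 0.02 for clenbuterol and between 0.05 and 0.12 for titled EPS. With a gap of at least 0.32 on the log2 scale, chosen after seeing the data, the members of the EPS pair above and below the clenbuterol pair numbered 2 and 5. Of single genes, Acsl6 with clenbuterol was at 0.35 to 0.39 in TPM or FPKM against 0.04 in CPM, and Cd36 in titled EPS at 0.31 with TPM plus 5; the cause was not tested. Over the whole table, genes at least 1.5-fold higher and lower with clenbuterol numbered 490 and 415, but 2516 and 1979 with no filter and 178 and 84 at a TPM of at least 5. For titled EPS they numbered 542 and 748, but 2192 and 2804 with no filter and 190 and 296 at a TPM of at least 5. In FPKM they were 208 and 107 with clenbuterol and 214 and 257 for titled EPS, in TPM plus 5 they were 119 and 35, and 89 and 175, and in TPM plus 1 the lower genes with clenbuterol were 265 and the higher genes of titled EPS 324. At 2-fold they were 226 and 139, and 184 and 286, and at 0.32 on the log2 scale 998 and 1109, and 1429 and 1744. No paired analysis was possible because each group holds 1 library. Depth limits Fabp4, Ppara and Ucp3, which have at most 26 counts per library.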
